A study of Mus musculus with 6 samples.

Results

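Hedgehog signaling in MC3T3-E1 cells was described by 8 genes of the deposited table, taken by their names: the ligand gene Ihh, the receptor genes Ptch1 and Smo, the GLI repressor gene Sufu, the transcription factor genes Gli1, Gli2 and Gli3, and the decoy receptor gene Hhip. They are 8 of the 54532 genes in the table, and 5 of them were among the 12681 genes expressed highly enough to be tested. MC3T3-E1 cells are mouse pre-osteoblasts, a line derived from calvaria, which lay down mineral when given osteogenic medium, here β-glycerophosphate, ascorbic acid and dexamethasone. All 6 samples were kept in that medium for 3 days. The control group (3 samples) received nothing more, and the metformin group (3 samples) also received metformin, a biguanide that lowers blood glucose, at 0.2 mM. Medium, dose and time come from the study's methods and results. The sample labels used here give none of these and name the treatments only as control and metformin. A single cell line was used.

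In the Hedgehog pathway a secreted ligand (Sonic, Indian or Desert hedgehog) binds Patched and so releases Smoothened from inhibition at the primary cilium. Smoothened then shifts the balance of GLI2 and GLI3 away from repressor forms, which Sufu and protein kinase A favor, and toward activator forms. Gli1, Ptch1 and Hhip are themselves target genes, so their mRNA is widely used as a readout of the pathway. In bone, Ihh from growth plate chondrocytes is needed for osteoblasts to form in the perichondrium, and GLI3 acts there mainly as a repressor.

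Levels are given as FPKM (reads per kilobase of gene length and per unit of an effective library size), which can be compared between genes. The reads behind them were recovered, and there were 18399861 to 20652437 per control sample and 19256672 to 22111790 per metformin sample. Log2 fold changes are metformin minus osteogenic medium on the scale of log2(FPKM + 1), which understates the change of low genes, and they were tested with limma-trend and Benjamini-Hochberg adjustment over all tested genes. Control replicate 1 stood apart from the other controls (Pearson r of 0.960 and 0.952 with them across genes, against 0.988 between those), and its deviation went with GC content (Spearman rho of -0.668 across genes, a description only). The members followed this. Ptch1 and Gli3, with a GC content of 47.8% and 48.4% in the longest transcript, had their highest control value in replicate 1. Sufu, Smo and Gli1, at 55.8%, 57.8% and 59.0%, had their lowest there. The effect of that library on each member is therefore given beside its result.

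The regions before the starts of Gli3 and Gli2 are shown because these were the transcription factor genes whose samples did not overlap between the groups. Both are 250 bases from the RefSeq promoter table (GRCm38.p6), 5′ to 3′ on the strand of the gene, ending at the base before the annotated start. The Gli3 window is chr13:15463473-15463722 on the plus strand and the Gli2 window is chr1:119053620-119053869 on the minus strand. Capitals mark the core of the GLI binding sequence, ACCACCC or its reverse complement GGGTGGT.
Gli3: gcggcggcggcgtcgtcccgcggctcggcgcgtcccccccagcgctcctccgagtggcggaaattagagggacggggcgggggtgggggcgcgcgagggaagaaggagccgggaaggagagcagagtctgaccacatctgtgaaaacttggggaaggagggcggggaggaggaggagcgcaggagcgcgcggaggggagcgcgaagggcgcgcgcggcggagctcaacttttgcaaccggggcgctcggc
Gli2: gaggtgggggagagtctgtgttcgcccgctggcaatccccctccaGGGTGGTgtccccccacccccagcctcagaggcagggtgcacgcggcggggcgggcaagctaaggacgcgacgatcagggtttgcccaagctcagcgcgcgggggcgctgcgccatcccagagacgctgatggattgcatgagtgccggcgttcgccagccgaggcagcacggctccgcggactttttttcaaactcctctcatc
The Gli3 window lies within the annotated span of the gene in GENCODE M21, which starts at 15463235. Both windows were rich in CG dinucleotides, with 34 in that of Gli3 and 22 in that of Gli2. The Gli2 window held 1 core match, whose first base lies 205 bases before the start, and the Gli3 window held none. Over the whole promoter windows of 300 bases (250 before to 50 after the start), which the table gives for 7 of the 8 members but not for Gli1, the core was found on either strand in 1 member, Gli2, and in 4.61% of all 32851 windows. The longer GLI sequence GACCACCCA, which contains the core, or its reverse complement TGGGTGGTC was found in none of the 7 and in 0.253% of all windows. A match is a run of letters and not a site shown to be bound. The windows of 300 bases held 39 CG dinucleotides for Gli3 and 28 for Gli2, and the median over all windows was 7. The other members with a window had from 12 (Sufu) to 47 (Ptch1).

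Among the 5 tested members, Gli3 changed with metformin. It rose 1.53-fold, while Smo, Ptch1, Gli1 and Sufu did not pass the test. In these bulk samples, fewer cells of a type and less RNA per cell cannot be told apart. Ihh, Gli2 and Hhip were at or close to the limit of detection. The order of the levels in osteogenic medium was Smo, Sufu, Ptch1, Gli3, Gli1, Ihh, Gli2 and Hhip, and with metformin Gli3 stood above Ptch1. One of 5 tested members (20%) was thus called higher, against 13.2% of all 12681 tested genes, and 9.28% of all tested genes were called lower. By limma-trend the other 4 had unadjusted p-values of at least 0.0564, and by voom on the recovered reads of at least 0.0522.

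**Figure D1:**
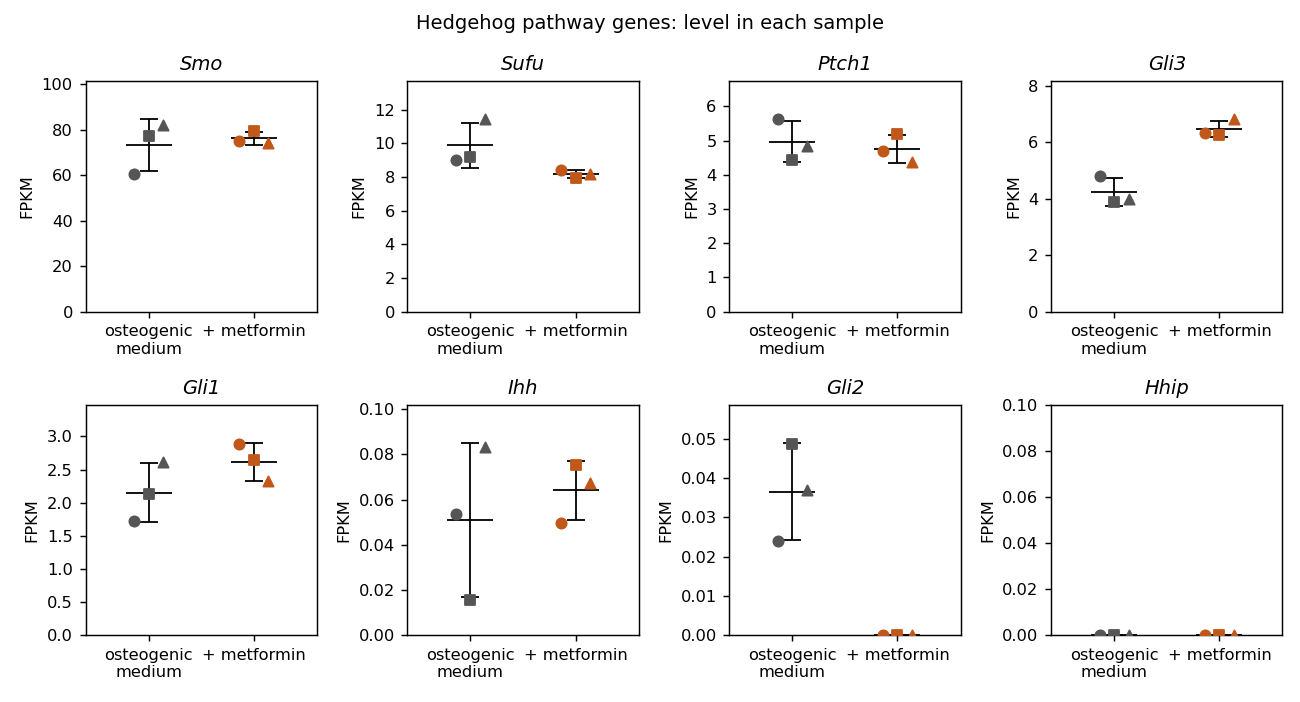
FPKM of each of the 8 genes (vertical axis, from 0, a scale of its own in each panel) in the 3 samples in osteogenic medium (grey) and the 3 with metformin (orange). Circles, squares and triangles are replicates 1, 2 and 3, and bars give the mean and SD. Gli3 with metformin (6.27 to 6.80 FPKM) lies above all control samples, Gli2 has reads only in the controls, and Hhip has none.

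Gli3 (ENSMUSG00000021318, plus strand of chromosome 13, 15463235 to 15730026, GRCm38) encodes the GLI factor that yields the main repressor form of the pathway. Its level was 4.81, 3.89 and 4.0 FPKM in osteogenic medium and 6.34, 6.27 and 6.80 FPKM with metformin. All 3 metformin samples were above all 3 controls, as they were for 23.6% of all tested genes. The mean rose from 4.23 ± 0.51 to 6.47 ± 0.29 FPKM (SD, n = 3 each), with 753 to 843 reads per control sample and 1206 to 1310 per metformin sample. The log2 fold change was 0.52 (standard error 0.10 and 95% interval 0.29 to 0.75, adjusted p = 0.0104 by limma-trend), and by voom on the recovered reads, which adds no pseudocount of 1, it was 0.62 (adjusted p = 0.00617). Without control replicate 1 it was 0.59 (adjusted p = 0.000799 by limma-trend). The adjusted p-value by limma-trend was 0.0517 without metformin replicate 1 (log2 fold change 0.53) and 0.0586 without metformin replicate 3 (log2 fold change 0.49). Gli3 was not called in these fits. Without metformin replicate 2 it was called (log2 fold change 0.54, adjusted p = 0.0484 by limma-trend). The fits without metformin replicates 1, 2 and 3 called 938, 943 and 985 of all tested genes higher, against 1670 with all samples. Exons of Gli3 share 188 bases with Gm6556 on the other strand, which had 37 reads over the controls and 44 over the metformin samples. Whether counting used strand is not given in the sources used here, so reads of the overlapping exons cannot be told apart.

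The 3 tested genes whose 6 values lay closest to those of Gli3, with each gene centred on its own mean, were Rfc1, Piga and Rassf3. The root mean square distance over the 6 samples was 0.026, 0.027 and 0.035 on the log2(FPKM + 1) scale. Rfc1 encodes a subunit of the loader of the replication clamp and Piga an enzyme of glycosylphosphatidylinositol anchor synthesis. Their log2 fold changes, which the choice by likeness fixes, were 0.54, 0.52 and 0.53.

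Gli1 (ENSMUSG00000025407, minus strand of chromosome 10, 127329882 to 127341974), the activator that is also the classical target gene, was expressed at a lower level. It was at 1.72, 2.13 and 2.61 FPKM in osteogenic medium and at 2.89, 2.64 and 2.32 FPKM with metformin. The groups overlapped. The log2 fold change was 0.20 (standard error 0.13, 95% interval -0.10 to 0.51, adjusted p = 0.304 by limma-trend). The upper bound was close to the change measured for Gli3 on that scale, 0.52. By voom the log2 fold change of Gli1 was 0.29 (95% interval -0.12 to 0.70, adjusted p = 0.272), with an upper bound above the 0.62 of Gli3. Without control replicate 1 the log2 fold change of Gli1 by limma-trend was 0.10. Exons of Gli1 share 62 bases with Arhgap9 on the other strand, which had 71 reads over the controls and 88 over the metformin samples, and the antisense gene Gm47200, which shares 265 bases, had 0 reads in either group.

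Gli2 (ENSMUSG00000048402, minus strand of chromosome 1, 118834132 to 119053619), in many tissues the main activator, was hardly detected. It had 3, 7 and 5 recovered reads in osteogenic medium and 0, 0 and 0 with metformin. The reads were thus in control samples only, 15 in all. Against a floor of 3 reads over the metformin group, which allows up to 0.00715 FPKM, the reads over the pooled library sizes were at least 5.19-fold lower with metformin, with the 15 control reads taken as exact. The exact permutation test over samples gave p = 0.10 (two-sided), the smallest that 3 against 3 samples can give, and a limma-trend fit with no filter on low values gave an unadjusted p of 0.0269 and an adjusted p of 0.152. Of the 1853 genes with 10 to 20 reads over all samples, 15 (0.809%), Gli2 among them, had reads in every control and in no metformin sample, a range set after the values were seen. Floors cover counting error only, while the intervals of log2 fold changes come from the limma fits and rest on the spread between samples.

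Of the summed FPKM of the GLI genes, Gli3 made up 73.4%, 64.1% and 60.2% in osteogenic medium and 68.7%, 70.4% and 74.6% with metformin. The groups overlapped, with means of 65.9% ± 6.79 and 71.2% ± 3.0 (SD, n = 3 each, exact permutation test, two-sided, p = 0.30). Gli1 made up nearly all of the rest, 33.5% ± 6.65 and 28.8% ± 3.0 (SD, exact permutation test, two-sided, p = 0.30, n = 3 each). The overlap came from control replicate 1: without it both controls were below all metformin samples in their Gli3 share and above them in their Gli1 share. The difference in the Gli3 share, 5.32 percentage points with all samples, was 9.07 without control replicate 1 and 2.46 without control replicate 3, and that in the Gli1 share, -4.75 with all samples, was -8.39 and -1.87, and -3.08 without metformin replicate 3. The share of Gli2 was 0.365% to 0.80% in the controls and 0% with metformin. Gli3 was thus the most abundant GLI mRNA in each of the 6 samples.

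Smo (ENSMUSG00000001761, plus strand of chromosome 6, 29735503 to 29761365), the signal transducer, had the highest level of the 8 genes, above 95.6% of all tested genes by its mean. Its FPKM was 60.4, 77.2 and 81.8 in osteogenic medium and 74.8, 79.6 and 74.0 with metformin. The metformin samples lay within the range of the controls, whose lowest sample was replicate 1. The log2 fold change was 0.07 (95% interval -0.24 to 0.38, adjusted p = 0.748 by limma-trend), and -0.06 without control replicate 1 (95% interval -0.21 to 0.08). Its transcript is 97.9% identical over 339 bases to the pseudogene Gm4066, which had 2 reads in each group.

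Ptch1 (ENSMUSG00000021466, minus strand of chromosome 13, 63508328 to 63573598), the ligand receptor and a target gene, was at 5.62, 4.43 and 4.85 FPKM in osteogenic medium and at 4.70, 5.20 and 4.37 FPKM with metformin. The groups overlapped. The log2 fold change was -0.05 (95% interval -0.30 to 0.20, adjusted p = 0.780 by limma-trend), and 0.03 without control replicate 1. The signs for Smo and Ptch1 therefore turned on 1 library. The ratio of Ptch1 to Smo FPKM was 0.0930, 0.0573 and 0.0593 in osteogenic medium and 0.0629, 0.0653 and 0.0591 with metformin, and did not separate the groups (exact permutation test, two-sided, p = 0.90, n = 3 each).

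Ptch1 and Gli3 lie on the same chromosome and have a similar GC content and a similar level in osteogenic medium. Their ratio was formed after the values were seen. Gli3 to Ptch1 was 0.857, 0.879 and 0.823 in osteogenic medium and 1.35, 1.21 and 1.56 with metformin. In every control Ptch1 was the higher of the pair and in every metformin sample Gli3 was. The mean ratio was 0.853 ± 0.028 and 1.37 ± 0.18 (SD, n = 3 each), and the exact permutation test over samples gave p = 0.10 (two-sided), the smallest it can give. Leaving out any 1 sample kept the difference of the means between 0.424 and 0.599, against 0.517 with all samples.

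**Figure D2:**
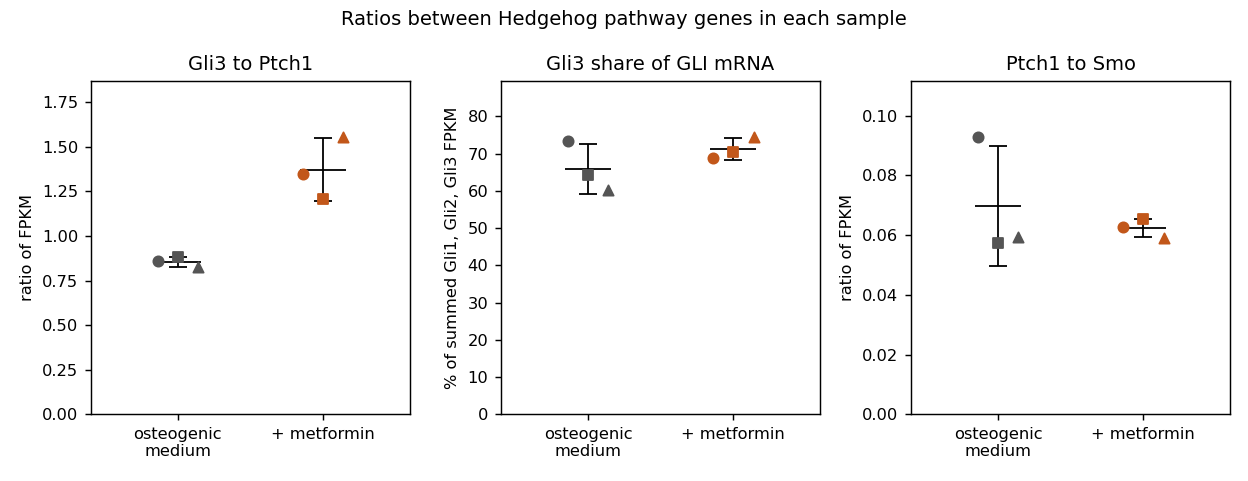
Ratio of Gli3 to Ptch1 FPKM, share of Gli3 in the summed FPKM of Gli1, Gli2 and Gli3 in percent, and ratio of Ptch1 to Smo FPKM (vertical axes, from 0), by sample. Grey is osteogenic medium and orange metformin, circles, squares and triangles are replicates 1, 2 and 3, and bars give mean and SD. The Gli3 to Ptch1 ratio is 0.823 to 0.879 in the controls and 1.21 to 1.56 with metformin, while the other panels overlap.

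Sufu (ENSMUSG00000025231, plus strand of chromosome 19, 46396896 to 46488804) encodes the cytoplasmic protein that holds GLI factors back. It was at 9.04, 9.21 and 11.4 FPKM in osteogenic medium and at 8.40, 7.96 and 8.18 FPKM with metformin. All 3 metformin samples were below all 3 controls, as they were for 20.5% of all tested genes. The means were 9.89 ± 1.33 and 8.18 ± 0.22 FPKM (SD, n = 3 each), and the log2 fold change of -0.24 did not pass the test (standard error 0.10, 95% interval -0.49 to 0.01, adjusted p = 0.151 by limma-trend). It did pass without control replicate 1 (-0.30, adjusted p = 0.0413 by limma-trend). With the GC trend of each library removed it also passed (-0.30, adjusted p = 0.0341). Those fits called 2590 and 2433 of all tested genes lower, against 1177 in the main fit. Without control replicate 3, the highest sample, the change was -0.14 and not called (adjusted p = 0.239 by limma-trend). No other omission of a single sample gave a call for Sufu.

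**Figure D3:**
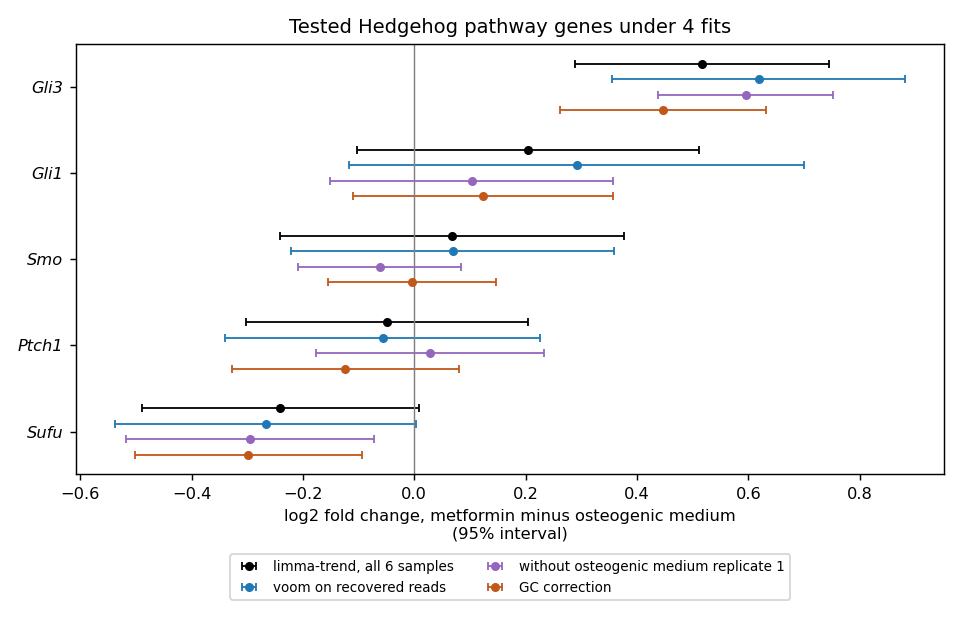
Log2 fold change (horizontal axis, metformin minus osteogenic medium, with 95% intervals) of the 5 tested genes under 4 fits, shown by color. The limma-trend and GC-corrected fits and the fit without control replicate 1 are on log2(FPKM + 1), and voom is on the log2 of recovered reads scaled by library. The 4 intervals of Gli3 lie above 0, and those of Sufu end at 0.009 by limma-trend, 0.003 by voom, -0.09 with the GC correction and -0.07 when control replicate 1 was left out.

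Ihh (ENSMUSG00000006538, minus strand of chromosome 1, 74945315 to 74951672), the ligand of the growth plate, had 3, 1 and 5 reads in osteogenic medium and 3, 5 and 4 with metformin. That is 0.051 ± 0.034 and 0.064 ± 0.013 FPKM (SD, n = 3 each, exact permutation test, two-sided, p = 0.70), and a difference was not detectable at this depth. Hhip (ENSMUSG00000064325, minus strand of chromosome 8, 79965851 to 80058006), which binds ligand at the cell surface and is a target gene in many tissues, had 0 reads in all 6 samples. A count of 0 allows up to 0.00561 FPKM over the controls and 0.00541 FPKM over the metformin samples. The other ligand genes were no higher: Dhh had 0 reads in any sample, and Shh had 2 reads in metformin replicate 1 and 0 elsewhere.

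The other pathway genes, 78 in 5 lists by role, were counted in the same fit. Of the 63 tested, 10 were higher with metformin (15.9%) and 4 were lower (6.35%), beside 13.2% and 9.28% of all tested genes. Their median log2 fold change was 0.02, and that of all tested genes was 0.01. These counts depended on single libraries: 5 were higher without control replicate 2 and without each of the metformin replicates, and 10 were lower without control replicate 1, against 0 without metformin replicate 1 and 1 without metformin replicate 2 or 3. With the GC correction 7 were lower, and over all tested genes that correction gave 2062 higher and 2433 lower, against 1670 and 1177 without it.

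Among genes that make and release ligand, Hhat, which encodes the acyltransferase that attaches palmitate to hedgehog proteins, fell from 4.43, 4.83 and 4.78 to 3.10, 3.30 and 2.96 FPKM (log2 fold change -0.46, adjusted p = 0.00799 by limma-trend). Scube3, of a family of secreted proteins that help to release the ligand, rose from 0.409, 0.636 and 0.782 to 1.16, 1.17 and 1.15 FPKM (log2 fold change 0.43, adjusted p = 0.0397 by limma-trend). With a pseudocount of 0.1 the change of Scube3 was 0.87 and not called (adjusted p = 0.0536 by limma-trend), and by voom it was 0.97 (adjusted p = 0.0156). The groups did not overlap for either gene. Over all tested genes, the metformin samples were all below the controls for 20.5% and all above them for 23.6%. Disp1, which exports the lipid-bearing ligand, was tested and not called (log2 fold change 0.29, adjusted p = 0.0826 by limma-trend), and Scube1 and Scube2 were under the limit.

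The surface receptors that act beside Patched moved in both directions. Cdon, a co-receptor that promotes signaling, rose from 6.99, 5.05 and 5.22 to 13.7, 15.4 and 14.7 FPKM (a log2 fold change of 1.22 with a standard error of 0.13, adjusted p = 0.000970 by limma-trend). Gas1, a co-receptor anchored to the membrane, fell from 152, 201 and 170 to 122, 118 and 110 FPKM (a log2 fold change of -0.57 with a standard error of 0.12, adjusted p = 0.0185 by limma-trend). Every metformin sample was above every control for Cdon and below every control for Gas1, as they were for 23.6% and 20.5% of all tested genes. Boc, the third co-receptor, was not called (6.40 ± 0.43 and 6.27 ± 0.69 FPKM, SD, n = 3 each, log2 fold change -0.03, adjusted p = 0.866 by limma-trend). Gpr161, a ciliary receptor that restrains the pathway through protein kinase A, rose from 2.79 ± 0.18 to 3.80 ± 0.09 FPKM (SD, n = 3 each, log2 fold change 0.34, adjusted p = 0.0242 by limma-trend). Gpc3, a glypican that competes for ligand, had 0 reads in all samples.

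All 21 genes of the relay between Smoothened and the GLI factors were tested and 2 were called, both higher (9.52%, beside 13.2% of all tested genes). Evc, part of the ciliary complex that Smoothened works through, rose from 5.42 ± 0.30 to 8.22 ± 0.45 FPKM (SD, n = 3 each, log2 fold change 0.52, adjusted p = 0.00551 by limma-trend), while its partner Evc2 did not pass (log2 fold change 0.04). Prkaca, a catalytic subunit of protein kinase A, rose from 51.1 ± 3.1 to 65.9 ± 2.6 FPKM (SD, n = 3 each, log2 fold change 0.36, adjusted p = 0.0273 by limma-trend). The other 19 had log2 fold changes from -0.33 for Spop to 0.24 for Grk2. Of 24 genes of the cilium and its transport, Ttc21b rose (0.33, adjusted p = 0.0417 by limma-trend), Ift20 and Dync2li1 fell (-0.59 and -0.52, adjusted p = 0.0102 and 0.0449), and 21 were not called. In this list 4.17% were thus higher and 8.33% lower, beside 13.2% and 9.28% of all tested genes.

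Of 19 genes known as Hedgehog targets in other tissues, 11 were tested, 4 were called higher and 7 were not called. That is 36.4% higher, beside 13.2% of all tested genes, in a list chosen with earlier results of these data known. The 4 were Bmp4, a bone morphogenetic protein, which rose from 15.6 ± 1.48 to 58.9 ± 0.30 FPKM (SD, n = 3 each, log2 fold change 1.85, adjusted p = 8.1e-05 by limma-trend), Stil, a centriole protein gene (1.53), and the D-type cyclin genes Ccnd1 (1.06) and Ccnd2 (0.48). By voom the log2 fold change of Stil was 2.68. The 7 not called had log2 fold changes from -0.25 for Snai1 to 0.23 for Foxf2, and control replicate 1 decided most of these. Without it, 5 of the 7 were called by limma-trend: Bcl2 higher (0.24, adjusted p = 0.0462), and Foxf1 (-0.19, adjusted p = 0.0370), Foxd2 (-0.41, adjusted p = 0.0485), Snai1 (-0.62, adjusted p = 0.000728) and Rab34 (-0.23, adjusted p = 0.0296) lower. The rest of the 7 were not called without that library, and Foxf2 changed sign to -0.11. With the GC correction and all 6 samples, limma-trend called none of Bcl2 (0.05, adjusted p = 0.690), Foxf1 (-0.03, adjusted p = 0.848), Foxd2 (-0.23, adjusted p = 0.217), Snai1 (-0.33, adjusted p = 0.162) and Rab34 (-0.18, adjusted p = 0.114). Over all tested genes the fit without control replicate 1 called 2969 higher and 2590 lower, against 1670 and 1177 with all samples. The 8 markers of cycling cells (Mki67, Top2a, Ccnb1, Cdk1, Birc5, Aurkb, Bub1 and Plk1) moved with the groups as well: all 8 were called higher, and their summed level was 24.3 to 35.4 FPKM in the controls and 183 to 191 FPKM with metformin. Their part in the changes of Stil, the cyclins, Gli3 and the other called genes was not tested.

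**Figure D4:**
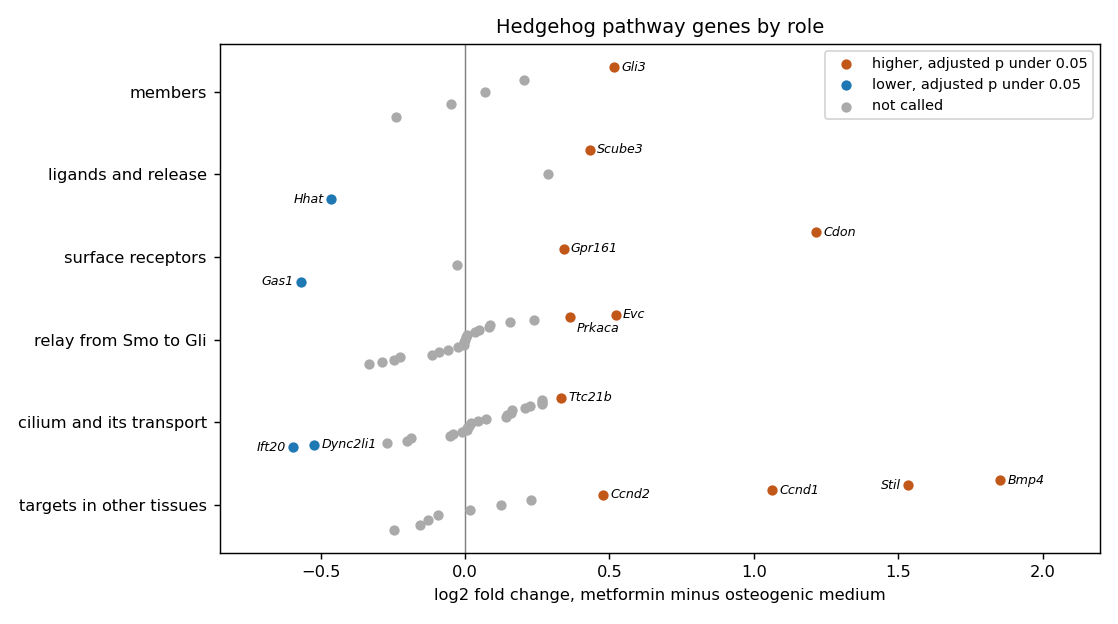
Log2 fold change on log2(FPKM + 1) (horizontal axis, metformin minus osteogenic medium) of the 5 tested members and the 63 other tested pathway genes, 1 point a gene, in rows by role. Orange and blue points are genes called higher and lower at an adjusted p under 0.05 by limma-trend, with their names, and grey points are not called. Cdon and Bmp4 lie farthest right in their rows, and Ift20, Gas1 and Dync2li1 farthest left of all.

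Calls of Cdon, Evc, Ccnd1, Bmp4 and Stil held in all 6 fits that each left out 1 sample. Those of Hhat and Ift20 held in 4, that of Gas1 in 3, those of Scube3, Gpr161, Prkaca and Dync2li1 in 2, and those of Ttc21b and Ccnd2 in 1.

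The label of the cells was checked with marker lists. All 13 osteoblast markers were expressed at a mean of at least 0.5 FPKM, Col1a1 at 1340 ± 359 and 2487 ± 108 FPKM and Runx2 at 30.5 ± 3.19 and 26.7 ± 0.84 FPKM (SD, n = 3 each, controls first). The lowest of the list were Msx2 (0.594 ± 0.093 and 1.57 ± 0.19 FPKM), Alpl (3.16 ± 0.60 and 2.71 ± 0.29 FPKM) and Bglap (8.04 ± 5.23 and 5.37 ± 0.83 FPKM). Of the 13, 4 were called higher with metformin (30.8%), Col1a1, Col1a2, Dlx5 and Msx2, and 3 lower (23.1%), Ibsp, Spp1 and Pth1r, beside 13.2% and 9.28% of all tested genes. Ibsp and Spp1, bone matrix glycoproteins, had the largest changes of the list (log2 fold changes of -1.60 and -1.50). The summed level was 11572 to 13603 FPKM in the controls and 8269 to 8768 FPKM with metformin, and most of that sum in the controls was Spp1, which fell from 7704 to 2704 FPKM. Of 9 chondrocyte markers, the cell type known for Ihh, 3 were tested, Sox9, Col2a1 and Col10a1. Sox9 was at 25.4 ± 4.55 and 20.7 ± 0.92 FPKM and Col2a1 at 9.71 ± 2.88 and 8.92 ± 0.70 FPKM (SD, n = 3 each), and neither was called in the main fit. Col10a1, of hypertrophic chondrocytes, fell from 3.79 ± 0.72 to 0.264 ± 0.078 FPKM (SD, n = 3 each, adjusted p = 0.000206 by limma-trend), and by voom its log2 fold change was -3.85. Matn3, a cartilage matrix protein gene under the limit for the test, was at 0.236, 0.0633 and 0.0675 FPKM in osteogenic medium and at 0.585, 0.548 and 0.443 FPKM with metformin, and was called higher by voom (log2 fold change 2.30, adjusted p = 0.0104). The summed list was 30.1 to 43.7 and 29.5 to 31.6 FPKM. Acan was at 0.013 FPKM or less in the mean of either group and Snorc at 0. Their part in the Hedgehog values was not tested. Markers of fat (2 of 6 tested, 0 called), muscle (0 of 3 tested), blood (1 of 4 tested, Cd68, called lower) and endothelial cells (0 of 4 tested) had summed levels of 7.76 to 12.2, 0, 1.12 to 2.18 and 0.024 to 0.131 FPKM over all samples.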

How the data were processed

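RNA sequencing of 6 samples of MC3T3-E1 cells was used, 3 in osteogenic medium and 3 with metformin. The authors deposited 1 table with a value per gene and sample and a gene length, and no unit. The deposited values are FPKM, as judged from the values: multiplied by the listed gene length in base pairs, 100% of those above 0 came out as whole reads (within 0.01 reads) of 1 step in each sample, so reads were recovered. The submitters' notes name Bowtie 0.12.2 and the builds mm8 and mm9, with no role, while all 8 members have the coordinates of GENCODE M21 (GRCm38), as do 53499 of 54532 genes. The annotation and counting tool are not given in the sources used here. The authors tested with DESeq2.

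Columns were matched to samples by their descriptions, and 0 other columns of samples were present. Limma 3.58.1 in R 4.3.3 was fitted with an intensity trend to log2(FPKM + 1) over the 12681 genes averaging 0.5 FPKM or more. P-values were adjusted by Benjamini-Hochberg, with 0.05 as threshold. Single values were compared by exact permutation tests (scipy 1.17.1). Near-identical transcripts (95% over 200 bases) were sought with BLAST+ 2.17.0. The GC correction subtracted, within each library, a spline (5 degrees of freedom) of the deviation from the gene mean on the GC content of the longest transcript. The main limma-trend fit was tested on simulated reads in which no library stood apart, and the alternative fits were not. Figures were drawn with matplotlib 3.10.9.

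The members and lists were chosen with earlier results of these data known. All 8 members are named, with called genes, ligands and surface receptors of the pathway lists, and the 3 genes nearest to each called member. Not every gene of these lists is reported here by name. Evc2, Grk2, Spop, Snai1, Foxf1, Foxf2, Foxd2, Bcl2, Rab34 and single marker genes were named after their values were seen. The labels do not say that samples came from separate cultures, although the methods call them biological replicates, so p-values measure the spread between these samples. Alternatives were another pseudocount, scaling, filters, voom, the replicate block, the GC correction and leaving out each sample.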

Additional observations from a re-analysis of the deposited data

How the results depend on the processing

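The rise of Gli3 kept its direction in every alternative run and its call in all but 2, the fits without metformin replicate 1 and without metformin replicate 3. Over the 6 fits that left out 1 sample each, the log2 fold change was 0.47 to 0.59 for Gli3, -0.115 to 0.0283 for Ptch1, -0.0621 to 0.154 for Smo, -0.30 to -0.14 for Sufu and 0.10 to 0.31 for Gli1. The changes of sign, for Ptch1 and Smo, came without control replicate 1. Smo was also at -0.0037 with the GC correction, with or without the replicate block. Sufu was called lower at -0.30 with the GC correction, with and without the replicate block, and at -0.25 with that correction and without control replicate 1, a fit chosen after seeing the data. The members called higher were 0 to 1 and those called lower 0 to 1 over the fits without 1 sample, and 1 member was called lower in each of the 3 fits with the GC correction. The cause was not tested.

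A replicate block left the Gli3 call in place, with an adjusted p-value of 0.0428 by limma-trend. The labels do not tie equal numbers together, and deviations of same-numbered samples had correlations of -0.053, 0.00027 and -0.055 across genes. The block gave 5 other pathway genes higher and 2 lower, and 698 lower genes in all, against 1161 higher. With no filter on low values 6 other pathway genes were higher. The other pathway genes called lower were 7 with the GC correction, with or without the block, and 10 with that correction and without control replicate 1. Without 1 sample, 5 to 15 were higher and 0 to 10 lower.

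Of all genes, 1670 were called higher and 1177 lower. Without 1 sample they were 938 to 2969 and 495 to 2590. The GC correction gave 2433 lower genes, 1888 with the block, and 3108 without control replicate 1, where 2701 were higher. The median log2 fold change of all genes shifted by -0.054 with this correction and by -0.025 with scaling by total reads.

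Without 1 sample the metformin minus control difference ranged from -0.0138 to 0.0041 for the Ptch1 to Smo ratio, above 0 without control replicate 1, and from -0.0046 to 0.029 FPKM for Ihh. At this depth Ihh, Gli2 and Hhip rest on at most 7 reads in a sample, and a difference in Ihh or Hhip was not detectable.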
